A study of Rattus norvegicus with 7 samples.

Results

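The alpha- and beta-crystallins, the main structural proteins of the lens together with the gamma-crystallins, were followed across 7 ages of a rat lens that becomes opaque. The members were Cryaa, Cryab, Cryba1, Cryba2, Cryba4, Crybb1, Crybb2 and Crybb3, and a transcript cluster (the set of array probes for 1 transcript region) was taken where the gene table of the array gave it one of these symbols. Cryab, Cryba1 and Cryba2 were found, each on 1 cluster that carried no other symbol. The other 5 members had no cluster of that name in the table used and were not analysed here. The 3 measured members stand among 18741 named rows (genes, or clusters with several symbols). All 3 were among the 5350 rows tested, which had a log2 signal of at least 5 in 1 lens or more.

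The rats were of the ICR/Ihr strain (Ihara Cataract Rat), a hereditary model in which cataract comes with age and no agent is given. Total RNA of male lenses was hybridized to 7 arrays, 1 for each age. The groups were nuclear opacity (14- and 18-week-old lenses), posterior subcapsular opacity (12-week-old lens), cortical opacity (8- and 10-week-old lenses) and no cataracts (2- and 4-week-old lenses). Every group was of the same strain, and how many lenses or animals an array stands for is not stated. The protocol in the labels has the lens taken out of culture medium before it was ground.

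Condition and age run together, so that their effects cannot be told apart. The arrays of a condition differ in age, so that a p-value here measures the spread between arrays of different ages. Precision is bounded by having 7 arrays in all. A change in these bulk samples cannot separate fewer cells of a type from less RNA per cell.

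Alpha-crystallins are small heat shock proteins that hold partly unfolded proteins in solution. Beta- and gamma-crystallins share a fold of repeated Greek key motifs and fill the fibre cells, which lose their nuclei as they mature and then make no further RNA. Cryaa and Cryab encode the alpha-crystallin subunits. Cryba1, Cryba2 and Cryba4 encode acidic beta-crystallins, and Crybb1, Crybb2 and Crybb3 encode basic ones. Cryab is also made in heart and muscle, while the beta-crystallins are largely proteins of the lens fibre cell. The transcription factors Maf, Pax6, Sox1, Prox1 and Hsf4 are known regulators of crystallin genes in the mouse lens.

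The sequence before the start of the beta-crystallin genes is shown because Maf and Hsf4 transcripts were among the genes that changed with age, and motifs named for Maf and for heat shock factors were searched in it. Both stretches hold the 250 bases before the start in RefSeq (build GRCr8), 5′ to 3′ on the strand of the gene, with the matches named below in capitals. Cryba1 lies on chromosome 10 between Nufip2 and Bola2-ps5, and the stretch is chr10:63112818-63113067 on the minus strand. Cryba2 lies on chromosome 9, its model overlaps those of LOC134480387 and Mir375, and the stretch is chr9:83899132-83899381 on the minus strand.
Cryba1: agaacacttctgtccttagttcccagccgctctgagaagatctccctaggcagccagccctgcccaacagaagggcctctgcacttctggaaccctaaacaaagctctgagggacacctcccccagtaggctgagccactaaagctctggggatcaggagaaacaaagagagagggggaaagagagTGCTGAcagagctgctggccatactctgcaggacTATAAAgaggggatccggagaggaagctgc
Cryba2: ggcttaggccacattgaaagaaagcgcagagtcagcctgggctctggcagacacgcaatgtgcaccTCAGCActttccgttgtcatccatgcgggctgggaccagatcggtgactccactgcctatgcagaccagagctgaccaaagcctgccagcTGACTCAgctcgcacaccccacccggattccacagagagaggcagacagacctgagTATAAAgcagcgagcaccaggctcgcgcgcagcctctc

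A TATA box (TATAAA) stood 30 to 25 bases before the start of Cryba1 and 38 to 33 bases before that of Cryba2. A Maf half-site (TGCTGA) was found once in each. In Cryba1 it stood 64 to 59 bases before the start. In Cryba2 it was on the other strand, 184 to 179 bases before it. Cryba2 also held the AP-1 type site TGACTCA, 94 to 88 bases before its start. The heat shock element was searched only as GAANNTTC, which did not match in either stretch. Other arrangements of its repeats were not searched, so that this does not show that the element is absent. Of 33469 such stretches of rat genes, 12.9% held the TATA box on either strand, 15.1% the Maf half-site, 4.05% the AP-1 type site and 7.23% the heat shock element. The matches named do not overlap one another, and a match describes the letters alone. Each motif was searched only in the form given here, so that longer or other forms of the Maf site were not looked for. The bases beside the AP-1 type site of Cryba2 were not compared with such forms either, so that its label does not exclude a Maf site there. Cryab lies on chromosome 8, and its RefSeq model overlaps that of Hspb2.

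Cryab, Cryba1 and Cryba2 changed little over the 16 weeks from the youngest to the oldest lens, and none passed a test in any comparison. The log2 signal of each stayed within 0.18 between its lowest and its highest array. Over the same arrays the gamma-crystallin Cryge covered at least 6.48, with its value under the floor of 5 set to 5.

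Cryab, the small heat shock protein of the measured members, had log2 signals of 13.17 and 13.23 at 2 and 4 weeks, 13.28 and 13.22 at 8 and 10 weeks, 13.22 at 12 weeks, and 13.22 and 13.22 at 14 and 18 weeks. The lowest value was that of the 2-week-old lens and the highest that of the 8-week-old lens, which are 0.11 apart on the log2 scale (1.08-fold). The 4 arrays from 10 to 18 weeks carried exactly the same value. Equal values are common in this table. At least 2 arrays agreed exactly in 47.9% of the tested rows, and 4 or more arrays shared a value in 8.54%.

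Cryba1, which encodes the beta-A3/A1 chains, had 12.97, 13.14, 13.13, 13.02, 13.02, 12.99 and 12.96 at the same ages, youngest first. It was highest in the 4-week-old and lowest in the 18-week-old lens, 0.18 apart on the log2 scale (1.14-fold). From 4 weeks on no array was above the one before it by more than 0.01, but the 2-week-old lens was nearly as low as the 18-week-old one.

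Cryba2, which encodes beta-A2-crystallin, had 13.00, 13.02, 12.99, 13.03, 13.05, 12.92 and 12.95. It was highest in the 12-week-old and lowest in the 14-week-old lens, 0.13 apart on the log2 scale (1.09-fold). The 2 lenses with nuclear opacity held its lowest values, with 12.99 at 8 weeks the next. How many of all tested rows share this order was not counted.

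**Figure D1:**
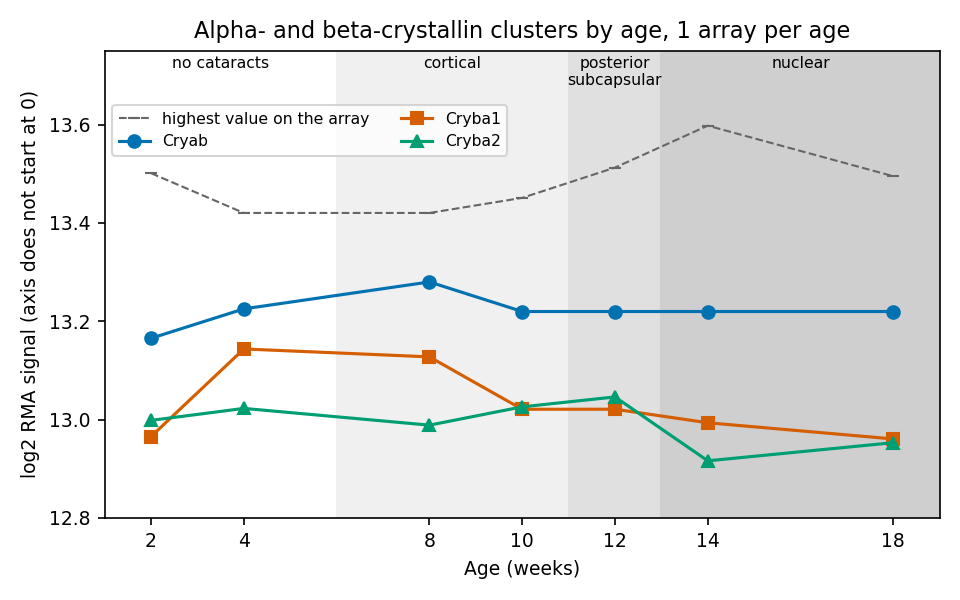
The log2 RMA signal of Cryab, Cryba1 and Cryba2 (y axis, not from 0) is plotted against age in weeks, 1 array per age, with the condition shaded and the highest value of each array as a dashed line. The 3 genes stay between 12.92 and 13.28, and the top of the arrays lies between 13.42 and 13.60.

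In the lenses with nuclear opacity the members averaged 13.22 for Cryab, 12.98 for Cryba1 and 12.93 for Cryba2, against 13.20, 13.05 and 13.01 in the lenses without cataracts (n = 2 arrays each). The log2 differences were 0.02 ± 0.09 for Cryab, -0.08 ± 0.11 for Cryba1 and -0.08 ± 0.09 for Cryba2 (SE, limma). None passed the threshold of 0.05 (limma, adjusted p = 0.891, 0.687 and 0.626), where 6.07% of all tested rows did (325 rows, of which 107 or 2.0% higher and 218 or 4.07% lower). The 95% intervals reached from -0.20 to 0.25 for Cryab, from -0.34 to 0.19 for Cryba1 and from -0.29 to 0.14 for Cryba2. Expressed as folds, the intervals of the 3 genes together span 0.787 to 1.19. Cryba1 differed by 0.18 between the 2 lenses without cataracts, which is more than its difference between the conditions. Both nuclear values of Cryba2 (12.92 and 12.95) were below both values without cataracts (13.00 and 13.02), a pattern that 33.0% of all tested rows showed.

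The lenses with cortical opacity averaged 13.25 for Cryab, 13.07 for Cryba1 and 13.01 for Cryba2. Against the lenses without cataracts the log2 differences were 0.05 ± 0.09, 0.02 ± 0.11 and -0.0033 ± 0.087 (SE), with adjusted p-values (limma) between 0.821 and 0.995. The background was 0.0% here, since limma called 0 of 5350 rows, while 849 had an unadjusted p under 0.05. The intervals of the 3 genes together span 0.842- to 1.22-fold.

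The single lens with posterior subcapsular opacity had differences of 0.02 ± 0.11 for Cryab, -0.03 ± 0.13 for Cryba1 and 0.04 ± 0.11 for Cryba2 (SE), where the lone array is assumed to vary like the others. Adjusted p-values (limma) lay between 0.908 and 0.948, and the share of all tested rows called was again 0.0%, with 1161 rows at an unadjusted p under 0.05. The intervals span 0.779- to 1.23-fold. The median of all tested rows was -0.13 in this comparison and -0.00056 after quantile normalization, and after it the difference of Cryba2 was -0.02.

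Lenses with nuclear opacity were also set against those with cortical opacity. The differences were -0.03 ± 0.09 for Cryab, -0.10 ± 0.11 for Cryba1 and -0.07 ± 0.09 for Cryba2 (SE, adjusted p by limma between 0.741 and 0.926), where limma called 0.0187% of all rows (1 row). For Cryba1 and Cryba2 both nuclear values were below both cortical values, as in 14.7% of all tested rows. The intervals span 0.777- to 1.14-fold.

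None of the members passed for a linear trend with age. The slope in log2 units per week was 0.0015 ± 0.0066 for Cryab, -0.0057 ± 0.0076 for Cryba1 and -0.0039 ± 0.0068 for Cryba2 (SE, limma adjusted p = 0.907, 0.682 and 0.756). Over the same ages 8.71% of all tested rows passed (194 or 3.63% with a rising and 272 or 5.08% with a falling trend).

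**Figure D2:**
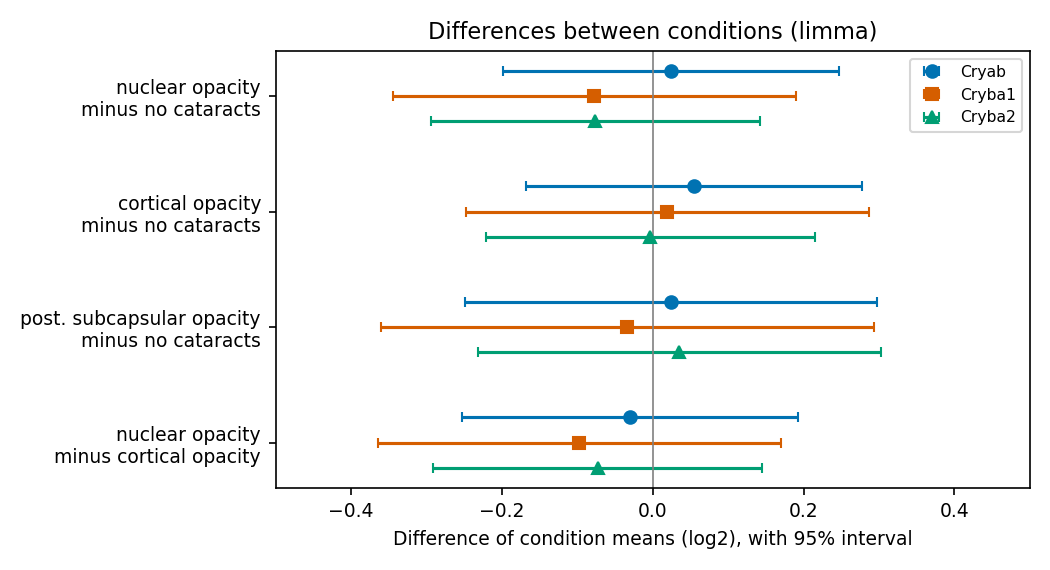
Differences between condition means in log2 units (x axis) are given for Cryab, Cryba1 and Cryba2 in 4 comparisons (y axis), with limma's 95% intervals as bars. All 12 intervals include 0 and none reaches beyond -0.36 or 0.30.

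The clusters of the members were among the brightest of every array. Of 36685 clusters, between 5 and 7 were brighter than Cryab on an array, between 8 and 13 brighter than Cryba1 and between 10 and 15 brighter than Cryba2. A range smaller than that of Cryab was found in 1.53% of the tested rows, smaller than that of Cryba1 in 4.32% and smaller than that of Cryba2 in 1.87%, and the median range of all tested rows was 0.54.

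Ranges were narrower at the top of the scale, but not for every gene. Among the 19 tested rows with a mean of at least 12, a limit chosen after the values were seen, the median range was 0.41, against 0.53 for means of 8 to 12 and 0.51 for means of 5 to 8. Crygd, a gamma-crystallin with a mean of 12.91, had log2 values of 12.92, 13.13, 13.13, 13.01, 13.00, 12.84 and 12.36 across the ages, a range of 0.77. Crygc, at a mean of 12.37, had the widest range of the 19, with 0.98. The mitochondrial gene COX3, at a mean of 12.40, had a range of 0.11. How far the top of the scale narrows the values of the members was not tested.

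**Figure D3:**
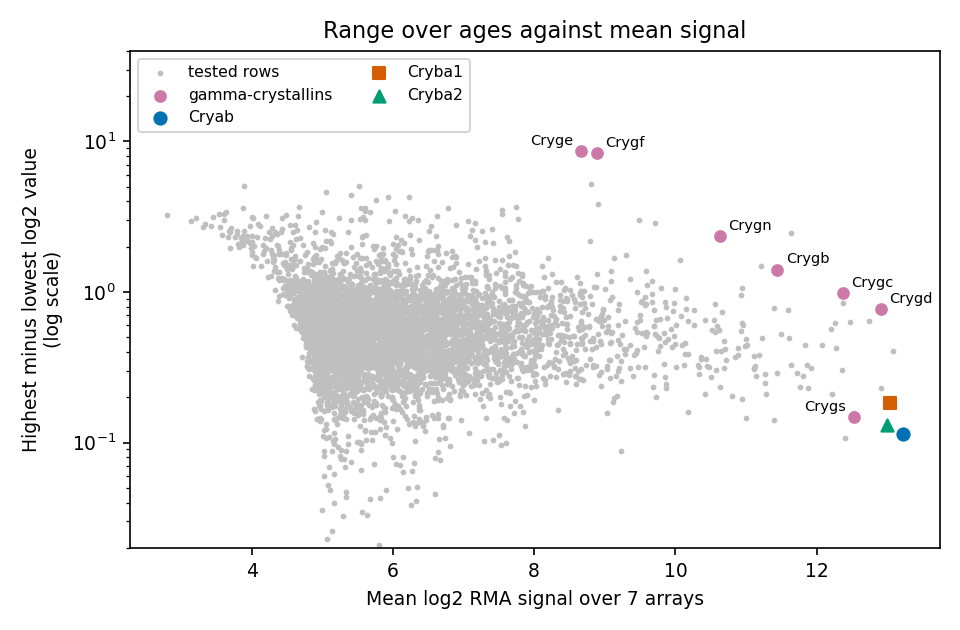
The difference between the highest and the lowest log2 value over 7 arrays (y axis, log scale) is plotted against the mean log2 signal (x axis) for the tested rows, leaving out 6 with a range of 0.02 or less. Cryab, Cryba1 and Cryba2 lie at the lower right with Crygs, while the other 6 gamma-crystallins lie above them.

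The gamma-crystallins are the relatives of the beta-crystallins that fill the core of the lens, and 7 of the 8 listed were named and tested. Those called with age all fell, while no measured alpha- or beta-crystallin was called. Their median slope was -0.08 per week, against -0.0044 for all tested rows, and 5 of 7 had a falling trend that passed (limma, adjusted p under 0.05), as did 5.08% of all tested rows. In nuclear opacity against no cataracts 3 of 7 fell (Crygc, Cryge and Crygn), where 4.07% of all tested rows fell. All 7 differences were negative there, with a list median of -1.05 against -0.05 for all rows. Crygf (-6.17 ± 1.31, limma adjusted p = 0.0586) and Crygb (-1.05 ± 0.23, adjusted p = 0.0626) missed the threshold, and both passed under 4 of 8 alternatives other than left-out arrays (lowest adjusted p 0.0263 and 0.0285). In cortical and in posterior subcapsular opacity none passed.

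Cryge had log2 signals of 11.01, 11.48, 10.52, 9.45, 8.49, 6.80 and 2.90 at 2 to 18 weeks, and each array from 8 weeks on was below the one before. Its slope was -0.50 per week. Crygf followed with 11.26, 11.71, 10.91, 9.18, 8.52, 7.27 and 3.36, a slope of -0.49. The 18-week values of both lie near the median of all clusters on that array (3.02) and under the floor of 5, so that the differences and slopes that use them are not exact. With these values set to 5 the slopes were -0.41 for Cryge and -0.42 for Crygf, and the differences in nuclear opacity were -5.34 and -5.35. Cryge and Crygf are near-identical copies, so that probes may read both and the split between them is uncertain.

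Crygn, which is related to both beta- and gamma-crystallins, had 11.96, 11.73, 10.81, 10.35, 10.13, 9.61 and 9.80. In contrast to Cryge and Crygf, most of its fall lay before 12 weeks. Its nuclear minus no cataracts difference was -2.14 ± 0.19 (SE, limma adjusted p = 0.0147). The age slopes of Cryge, Crygf and Crygn passed without any 1 of the 7 arrays. Of 8 other alternatives, the slope of Cryge lost its call without the floor (adjusted p = 0.0578) and with the logarithm of age (adjusted p = 0.0604), and that of Crygf with the logarithm of age (adjusted p = 0.052).

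Crygb had 11.64, 11.98, 11.99, 11.50, 11.47, 10.94 and 10.58, and its slope of -0.08 passed narrowly (limma adjusted p = 0.0424). Crygc had 12.53, 12.82, 12.66, 12.46, 12.32, 11.93 and 11.84, and its slope of -0.06 had an adjusted p of 0.0351 (limma). Both slopes lost their call when the 4-, 10-, 12-, 14- or 18-week-old lens was left out, and that of Crygc also without the 8-week-old lens, at values between -0.08 and -0.05. Neither passed without the floor, with median centring or with the logarithm of age (adjusted p between 0.0541 and 0.164). Crygs, the gamma-crystallin made throughout adult life, had 12.50, 12.56, 12.59, 12.56, 12.52, 12.44 and 12.52, a range of 0.15 that resembles those of the members. Its nuclear minus no cataracts difference was -0.05 ± 0.09 (SE, limma adjusted p = 0.751), and 0.01 with each array centred on its median.

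The differences in nuclear opacity of Crygc (-0.79 ± 0.14, limma adjusted p = 0.0414) and Cryge (-6.39 ± 1.24, adjusted p = 0.0494) lost their calls when any array but that of the 12-week-old lens was dropped (adjusted p between 0.092 and 0.234, differences between -0.93 and -0.64 for Crygc and between -8.35 and -4.44 for Cryge). The difference of Crygn lost its call without the 2-, 4-, 14- or 18-week-old lens (adjusted p between 0.0787 and 0.158, differences between -2.26 and -2.03).

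**Figure D4:**
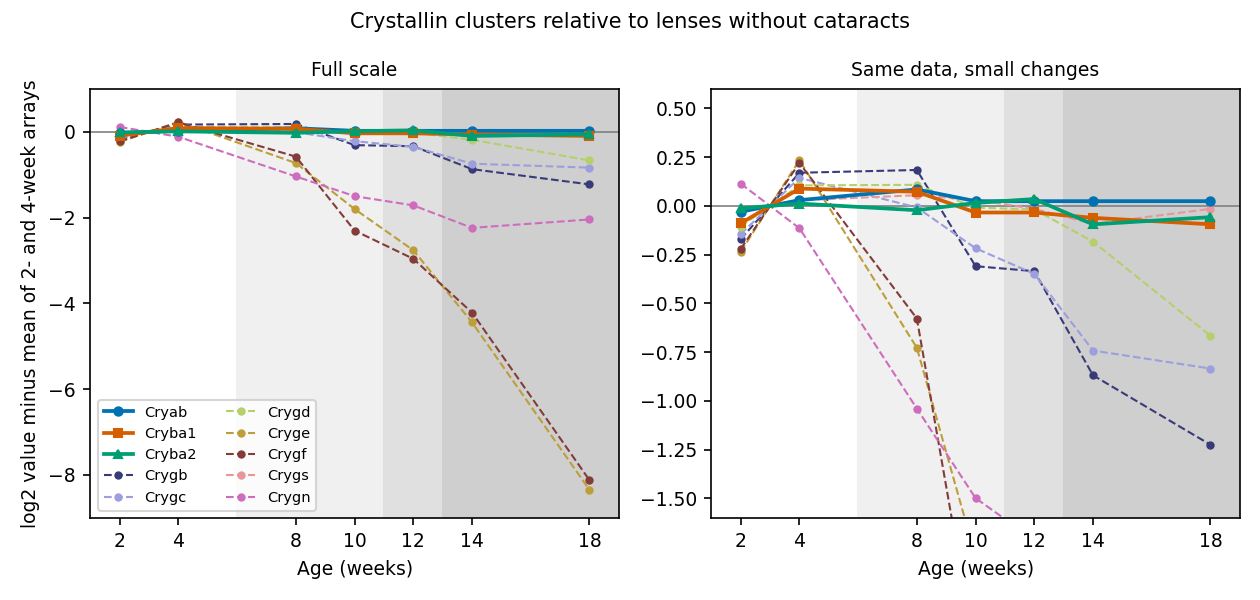
The log2 value minus the mean of the 2- and 4-week-old lenses (y axis) is plotted against age in weeks for the 3 alpha- and beta-crystallins (solid) and 7 gamma-crystallins (dashed), at full scale on the left and enlarged on the right. At 18 weeks Cryge and Crygf are drawn at -8.35 and -8.12 from values under the floor of 5 (-6.25 and -6.48 with the floor in their place), and Crygn lies at -2.04, and Cryab, Cryba1 and Cryba2 at 0.02, -0.09 and -0.06.

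The trend of each gamma-crystallin relative to each member was also tested on the difference of the 2 log2 values within an array, over all 5040 orders of the ages. This test was chosen after the values were seen. With members that cover 0.11 to 0.18, the slope of a pair is close to the gamma-crystallin's own (-0.499, -0.492 and -0.494 per week for Cryge in its 3 pairs and -0.498 alone), so that it is no separate evidence of the falls. Of 21 pairs, 16 passed (two-sided exact permutation test, adjusted p under 0.05 over the pairs, smallest p possible 0.000198), and 16 also passed with values under 5 set to 5. They were all 3 pairs of Cryge, Crygf, Crygn, Crygb and Crygc, and the pair of Crygd with Cryab (adjusted p = 0.0339, exact permutation). For Crygs none of the 3 pairs passed (adjusted p between 0.162 and 0.819). Without the 18-week-old lens 10 pairs passed, and with the logarithm of age in place of age 3 did.

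Small heat shock proteins form the wider family of Cryab. Of 8 listed relatives, 7 were named and 3 were tested, Hspb1 and Hspb2 among them. Hspb1, a stress-induced relative that forms mixed complexes with alpha-crystallin, had log2 signals of 9.24, 9.45, 9.95, 9.89, 9.85, 9.86 and 10.30. It was lowest at 2 weeks and highest at 18 weeks. Its trend rose by 0.06 ± 0.01 per week (SE, limma adjusted p = 0.0205). Hspb1 was the 1 of the 3 tested that was called with age, where 3.63% of all tested rows rose. Leaving out the array of 2 weeks ended the call (0.05 per week, adjusted p = 0.122), as did leaving out that of 4 weeks (adjusted p = 0.0797) or 18 weeks (adjusted p = 0.0733). Its difference in nuclear opacity, 0.74 ± 0.17, had an adjusted p of 0.0708 (limma), and passed under 4 of 8 alternatives other than left-out arrays (lowest adjusted p 0.0273).

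Hspb2, whose model overlaps that of Cryab but which has a cluster of its own, stayed low with 5.59, 5.47, 5.47, 5.47, 4.96, 5.24 and 5.75. It was chosen for its position after its values were seen. Its lowest array was that of the 12-week-old lens, where Cryab had the same value as on its neighbours.

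Of 22 listed regulators of crystallin genes, 19 were named and 15 tested. None rose and 2 fell, Maf and Hsf4, both in nuclear opacity against no cataracts and with age. The share of all tested rows that fell was 4.07% in nuclear opacity and 5.08% with age. The median difference of the 15 in nuclear opacity was -0.14, against -0.05 for all tested rows.

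Maf, a leucine zipper factor that activates crystallin promoters, had log2 signals of 10.24, 10.16, 9.46, 9.42, 9.41, 9.41 and 9.13. Hsf4, the heat shock factor of the lens, had 8.41, 8.29, 7.78, 7.81, 7.69, 7.60 and 7.26. For both, each lens with opacity was below both lenses without cataracts, as in 22.5% of all tested rows, and the 18-week-old lens was lowest.

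Maf was lower in nuclear opacity by 0.93 ± 0.12 and Hsf4 by 0.92 ± 0.14 on the log2 scale (SE, limma adjusted p = 0.0267 and 0.0318). Both calls were lost without the floor, with only the compared conditions in the fit, and when any array but that of the 12-week-old lens was left out, the last with adjusted p-values between 0.0804 and 0.195 and differences of -1.09 to -0.75. With age the slope of Hsf4 was -0.07 per week (limma adjusted p = 0.0042) and passed without any 1 of the 7 arrays. The slope of Maf was also -0.07 (adjusted p = 0.0146), and it came to -0.06 when the array of 2 weeks (adjusted p = 0.0893) or of 4 weeks (adjusted p = 0.0661) was dropped.

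**Figure D5:**
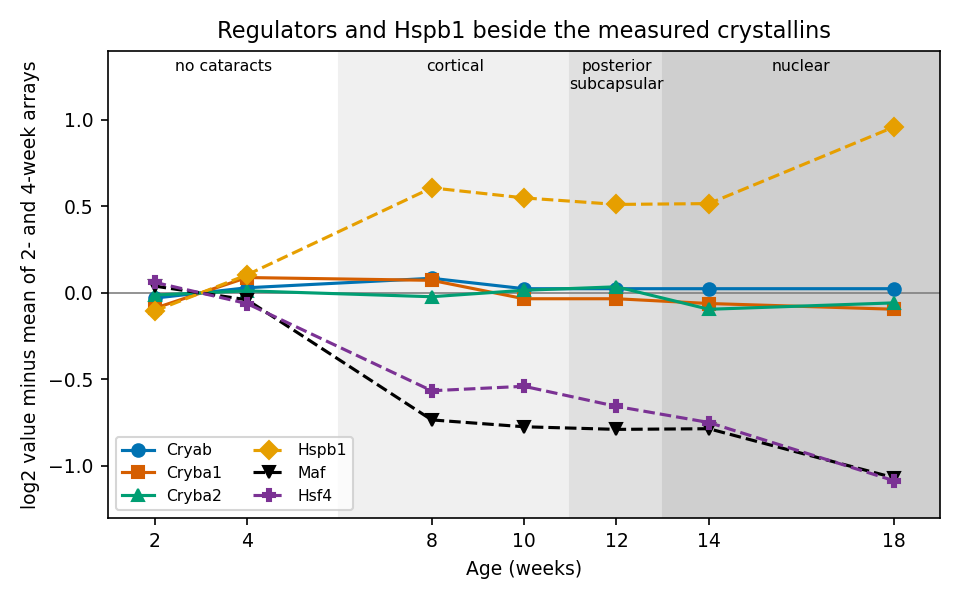
The log2 value minus the mean of the 2- and 4-week-old lenses (y axis) is plotted against age in weeks for Cryab, Cryba1 and Cryba2 (solid) and for Hspb1, Maf and Hsf4 (dashed). At 18 weeks Maf lies at -1.07, Hsf4 at -1.08 and Hspb1 at 0.96, while Cryab, Cryba1 and Cryba2 lie between -0.09 and 0.02.

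The tissue label was checked with markers of the lens and of its neighbours. All 9 named lens fibre markers were above a log2 value of 5 on every array, and their mean lay between 10.75 and 11.05. Of the 9, 7 had a negative and 2 a positive difference in nuclear opacity against no cataracts (median -0.31) and likewise slope with age (median -0.02), and none fell by the test. Lgsn, a lens protein of the glutamine synthetase family, was the 1 marker called, and rose with age (0.13 per week, limma adjusted p = 0.0463), where 3.63% of all tested rows rose. Its values were 9.83 at 2 weeks and 11.28 to 12.28 later. Of the 7 fits with 1 array dropped, only that without 18 weeks kept the call. Dropping the array of 2 weeks gave a slope of 0.06, and the 6 fits that lost the call had adjusted p-values between 0.0533 and 0.1. None of the 12 photoreceptor, 4 red blood cell, 9 immune cell or 6 endothelial markers named reached 5 on any array. Between 4305 and 4766 named rows reached 5 on an array.

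Markers of other parts of the eye also differed between the ages. Of 13 named ciliary body and zonule markers, 10 reached 5 at 2 weeks and 6 at 4 weeks, and between 1 and 5 did so later. Their summed linear signal was 1319 at 2 weeks, 673 at 4 weeks and 270 to 467 later. All 10 tested had a negative difference in nuclear opacity against no cataracts (median -1.37, against -0.05 for all tested rows). A marker that reached 5 only at 2 weeks was tested because of that array, which is in the no cataracts group. The sign of such a difference was largely set by the floor, so that the count of signs and the median are no evidence of a fall. Only 1 of them was called, where 4.07% of all tested rows fell. It was Mfap2, a microfibril protein (-1.67 ± 0.10, limma adjusted p = 0.0143). Of 11 named pigment cell markers, 5 reached 5 at 2 weeks and 2 at every later age, with a summed signal of 552 at 2 weeks and 279 to 327 later. Of the 5 tested, 4 had a negative and 1 a positive difference in nuclear opacity (median -1.33), and the limit set by the floor holds for them too. Mitf, the pigment cell transcription factor, was the 1 called, and fell (-0.97 ± 0.16, limma adjusted p = 0.0357), where 4.07% of all tested rows fell.

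Of 9 named lens epithelium markers, 8 were above 5 on all arrays, with a summed signal of 1598 at 2 weeks and 1051 to 1289 later. Of the 8 tested, 6 had a negative and 2 a positive difference in nuclear opacity. Slc38a3, an amino acid transporter of that layer, was the 1 called, and fell (-0.86 ± 0.14, limma adjusted p = 0.034), where 4.07% of all tested rows fell. The calls of Slc38a3 and Mitf were lost without any array but that of the 12-week-old lens (adjusted p between 0.0846 and 0.202), and that of Mfap2 without the 2-, 4-, 14- or 18-week-old lens (adjusted p between 0.0787 and 0.158). With age the slope of Mfap2 was -0.12 per week (limma adjusted p = 0.0034) and passed without any 1 of the 7 arrays. The slope of Mitf was -0.07 (limma adjusted p = 0.0337), and 6 of the 7 fits with an array dropped lost the call. That of Slc38a3 was -0.06 and was not called (limma adjusted p = 0.0529). With age 5.08% of all tested rows fell. The part of these other cells in the differences of the gamma-crystallins, Maf, Hsf4 and Hspb1 was not tested.

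The members did not follow each other closely. Across the 7 arrays Pearson's r was 0.68 between Cryab and Cryba1, 0.37 between Cryba1 and Cryba2 and -0.04 between Cryab and Cryba2. Among 2961 tested rows with a range of at least 0.5, the closest to Cryab were Calr4, Ap3s1 and Cibar1 (r between 0.96 and 0.98). The closest to Cryba1 were Rpl12l2, Park7-ps2 and Zcchc4 (r between 0.93 and 0.97). Those to Cryba2 were Rtfdc1, C8g and Trub1 (r between 0.86 and 0.93). The arrays share their normalization, and with 7 points and 2961 rows searched these values describe the likeness alone.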

How the data were processed

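Lens RNA was measured on Affymetrix arrays (GeneChip Rat Gene 2.0 ST). The table deposited by the authors holds a log2 signal after RMA for each transcript cluster, which was taken without further scaling. Tool versions, and which arrays were normalized together, are not given in the sources used here. RMA models all probes of a cluster together, and equal log2 values on several arrays are frequent in the table.

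Clusters were named with the platform's gene table, with symbols updated by Entrez identifier from RefSeq (GRCr8). Of 36685 clusters, 18511 carried 1 symbol, 575 several and 17599 none. The cluster with the highest mean was kept for each of 18166 genes, and clusters with several symbols stayed as rows of their own. Rows at or above log2 5 on at least 1 array were tested (5350), a floor taken from the study's methods, and 13391 were left out.

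limma 3.58.1 (R 4.3.3) fitted 1 mean per condition to the 7 arrays, with 3 residual and 5.40 moderated degrees of freedom. A second fit took age as a line (5 and 7.91). P-values were adjusted by Benjamini and Hochberg over all tested rows. The pipeline was tested on simulated data. Alternatives covered the floor, scaling, the prior, array weights, a fit of only the compared conditions, the logarithm of age and each array left out. Quantile normalization, the logarithm of age, left-out arrays and values under 5 set to 5, for the pairs of crystallins, were added after seeing the data.

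Members, lists and the rule for named genes (list members that passed any test, and the 3 rows most like each member by Pearson's r) were chosen with earlier results of these data known. Crygd, Crygs, Hspb2 and COX3 fall outside that rule and were named after their values were seen.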

Additional observations from a re-analysis of the deposited data

How the results depend on the processing

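None of the 3 alpha- and beta-crystallins passed in any comparison under any alternative. Several signs changed. With single arrays left out, Cryab ranged from -0.0054 to 0.054 both for nuclear and for posterior subcapsular opacity, and its age slope from -0.0018 to 0.0028. Cryba1 ranged from -0.167 to 0.011 (nuclear), -0.069 to 0.109 (cortical) and -0.123 to 0.055 (posterior subcapsular), and Cryba2 from -0.022 to 0.015 (cortical). Quantile normalization gave -0.074 for Cryba1 in cortical and -0.021 for Cryba2 in posterior subcapsular opacity. Median centring gave 0.136 for Cryba1 in posterior subcapsular and 0.102 for Cryba2 in cortical opacity, a slope of 0.0016 for Cryba2, and the largest member differences of any alternative other than left-out arrays, 0.205 for Cryba2 and 0.194 for Cryab in posterior subcapsular and 0.160 for Cryab in cortical opacity (0.036, 0.025 and 0.055 as deposited). For Crygs it gave 0.014 (nuclear) and a slope of 0.0024. The number of rows called in nuclear opacity against no cataracts (325) was 0 without the floor and with only the conditions compared in the fit, 496 with median centring and 0 to 325 with an array left out. In cortical opacity (0) it was 12 with a floor of 6, 3 with median centring and 12 with a trended and robust prior. In posterior subcapsular opacity (0) it was 21 with a floor of 6, 18 with quantile normalization, 23 with median centring, 49 with a trended and robust prior and 1 with array weights, and there is no value when 12 weeks is dropped. Nuclear against cortical opacity (1) gave 0 without the floor and with only the conditions compared, 2 with quantile normalization, 2 with median centring, 3 with a trended and robust prior and 0 to 1 with an array left out. The age slope (466) gave 117 without the floor, and 100 to 585 with an array left out, the lowest when 2 weeks was dropped and 120 when 4 weeks was dropped. Of the pairs of gamma-crystallin and member, 3 passed with the logarithm of age and 10 to 18 with an array left out. The causes of these changes were not tested. No paired analysis was possible, since each age had 1 array and the conditions had no age in common. The 7 arrays, 1 per age, limit what could be detected.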
